A study of Danio rerio with 8 samples.

Results

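The values examined here are those of all 8 libraries of the series, grouped by the clutch from which the larvae came rather than by genotype alone. Every one of the 8 libraries was used, and each of 4 clutches contributed 1 control and 1 mutant library. RNA came from whole zebrafish (*Danio rerio*) larvae at 4 dpf, with circa 30 larvae pooled per tube. The mutants were *elipsa* larvae, homozygous for the *tp49d* allele of *traf3ip1*, which encodes a component of the intraflagellar transport machinery of cilia, and the controls were their wild-type or heterozygous siblings. The 4 clutches came from separate breedings of 1 parental strain, and the control and mutant tubes of a clutch were handled together, so the clutch and the round of handling cannot be told apart. The question was which genes differed from clutch to clutch in controls and mutants alike.

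Larvae of this age live on the last of their yolk while the gut, liver and pancreas become functional. The exocrine pancreas secretes digestive enzymes, the intestine takes up lipids and peptides, and the liver makes plasma proteins. Blood is made in successive waves, with embryonic globins in the first cells. Many tissues also carry a circadian clock, a loop in which the activators Clock and Bmal (Arntl) switch on the *per*, *cry* and *nr1d* genes, whose products then repress the loop. In zebrafish, cells outside the eye also respond to light directly, and the transcripts of many of these genes rise and fall over the day. Fish were kept in a light and dark cycle, and the hour at which each clutch was collected is not given in the sources used here.

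The unit is the authors' log2 normalised read count (log2 CPM), given for 20409 genes. The depth of each library is unknown, so no interval from counting is given. Of 51 defining markers of 17 cell types, 48 were measured, and each of these had a mean log2 value of 1 or more. They ranged from the germ cell gene *ddx4* with a mean of 1.00 to the keratin gene *krt4* with 13.23. The mutated gene *traf3ip1* had log2 values of 3.03, 2.63, 2.81 and 2.78 in the controls of clutches 1 to 4 and of 2.36, 1.88, 1.61 and 2.09 in the mutants. Every mutant library lay below every control library, and the gene was not called among clutches (adjusted p = 0.232, limma F test).

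Genes were compared among clutches with limma, with genotype as a covariate, and called at an adjusted p under 0.1. The four-clutch F test called 5310 genes, 26.0% of those tested. Each clutch was then set against the mean of the other 3, so the 4 comparisons share libraries and each clutch stands in the reference of the others. Clutch 1 differed in the most genes, with 2917 higher (14.3%) and 2564 lower (12.6%). Clutch 4 followed with 1558 higher (7.63%) and 1581 lower (7.75%), clutch 2 with 545 higher (2.67%) and 365 lower (1.79%), and clutch 3 with 243 higher (1.19%) and 184 lower (0.902%). Most differences were small. Among the called genes, 102 were higher and 437 lower in clutch 1 by 1 or more on the log2 scale, against 152 higher and 103 lower in clutch 4.

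The split between higher and lower calls depended on the scale. When libraries were re-centred on a list of housekeeping genes, 1140 genes were higher and 3376 lower in clutch 1, 736 higher and 212 lower in clutch 2, and 428 higher and 141 lower in clutch 3. The counts also fell when a library was left out. A clutch that loses a library rests on a single one, so its calls tend to fall whatever that library held. The same holds for the calls of a gene list. For clutches 2 and 4, only the lower of the counts on leaving out either of their libraries follows. Without control 1, 2205 genes were called in clutch 1 in both directions, and without mutant 1, 2363. Only 58 were called in clutch 2 without control 2, 63 in clutch 3 without control 3, 34 in clutch 3 without mutant 3, and 463 in clutch 4 without mutant 4.

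**Figure D1:**
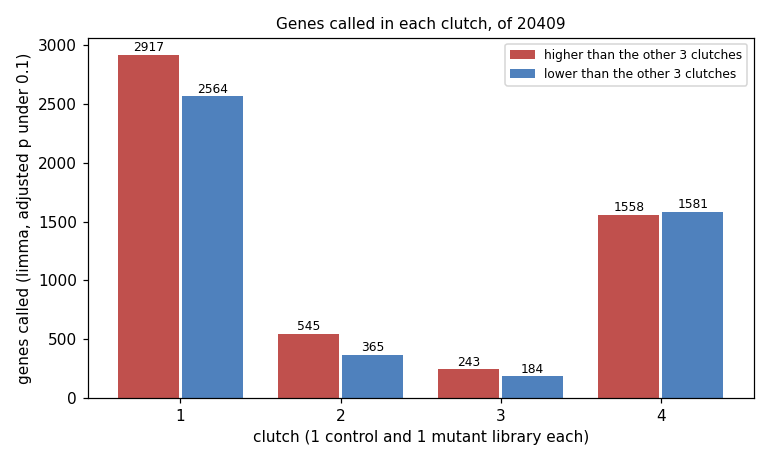
Number of genes called higher (red) or lower (blue) in each clutch than in the mean of the other 3, by limma with genotype as a covariate at an adjusted p under 0.1. Clutch 1 has the tallest bars, with 2917 and 2564 genes, and clutch 3 the shortest, with 243 and 184.

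Over all genes, the clutch accounted for 53.6% of the sum of squares around each gene's mean, the genotype for 27.4% and the remainder for 19%. The clutch share spans 3 degrees of freedom and the genotype share 1, so that the clutch held less for each degree of freedom (17.9%) than the genotype (27.4%). Clutch 1 gave 41.5% of the clutch share, clutch 4 25.3%, clutch 2 17.9% and clutch 3 15.3%. The range of the 4 clutch effects was larger than the difference between mutants and controls in 17901 genes (87.7%). A range is taken over 4 values and the other is a single difference, so the former tends to be the larger. The mutants differed from controls in 311 genes without a term for the clutch and in 2927 with clutch as a block. Of the 311 genes, 66 (21.2%) were also called among clutches, beside 26.0% of all genes. Of the 2927 genes, 1448 (49.5%) were called among clutches. Both overlaps are partly set by the fits. Without a clutch term, differences among clutches count as error, and with it both tests share the same residual.

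The control and the mutant of a clutch departed from their own genotype groups together. Across 20409 genes, which are not independent replicates, the departures correlated at r = 0.64 in clutch 1, 0.33 in clutch 2, 0.33 in clutch 3 and 0.46 in clutch 4. Pairs from different clutches gave values from -0.36 to 0.09. The departures of a genotype group cancel out in each gene, so a positive same-clutch value itself draws the other pairs down. Both libraries lay beyond the other 6 for 24.7% of genes in clutch 1, 8.28% in clutch 2, 6.69% in clutch 3 and 14.3% in clutch 4. Any pair of libraries lies beyond the rest in some genes without a clutch effect. The small shares of clutches 2 and 3 therefore do not by themselves show a joint departure. Genes chosen in controls alone can be read in mutants, which the choice did not use. Of 625 genes lower by 1 or more in control 1, 582 (93.1%) were also lower in mutant 1, with a median log2 difference of -0.96, while 45.6% of all genes were lower there. Of 218 genes higher by 1 or more in control 4, 195 (89.4%) were also higher in mutant 4, beside 47.4% of all genes. The share was smallest for the 155 genes lower by 1 or more in control 2. Of these, 96 (61.9%) were lower in mutant 2, beside 49.6% of all genes. The 155 genes had a median log2 difference of -0.20 there.

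**Figure D2:**
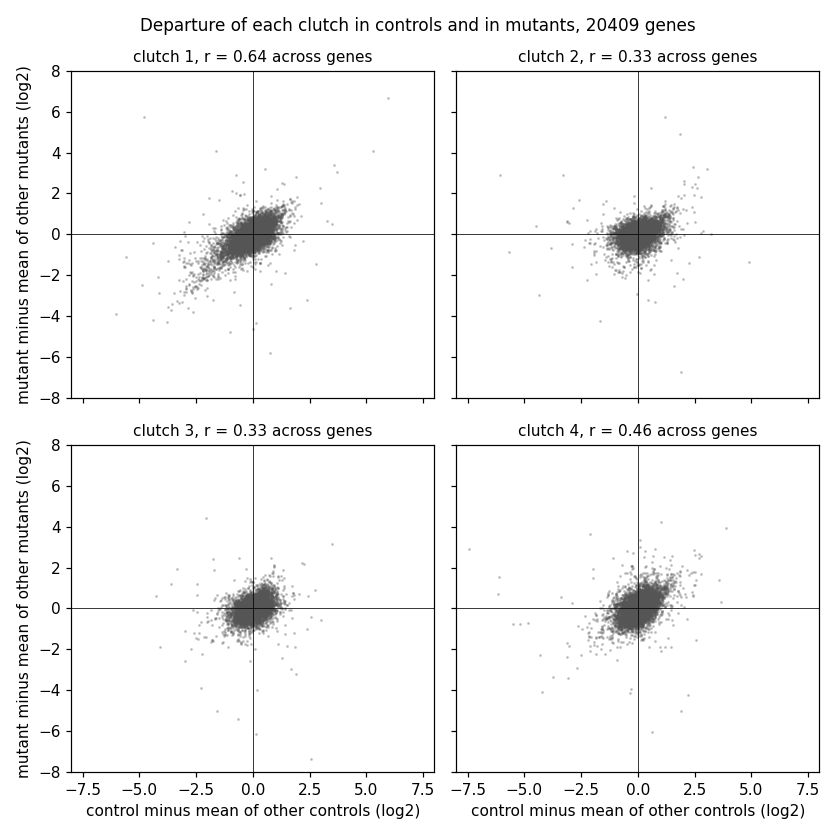
Each point is a gene. The horizontal axis is the log2 difference of the control of a clutch from the mean of the other 3 controls, and the vertical axis is the same for mutants. The cloud of clutch 1 (r = 0.64) is drawn out toward the lower left, where genes were low in both libraries.

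In clutch 1 the exocrine pancreas and the absorbing intestine had the lowest medians of all gene lists. Of 32 measured genes for secreted enzymes and other products of acinar cells, 30 were lower in clutch 1 and no member was called higher. Their median log2 difference was -2.30 (4.92-fold lower), beside 0.04 over all genes. The median was -2.38 in controls alone and -2.24 in mutants alone. The members not called in clutch 1 were *cpb2*, with a difference of -0.26, and *cuzd1.1*, with 0.26, both named after their values were seen. Leaving out any single library left 29 or 30 members of the exocrine pancreas list lower. In bulk larvae, fewer cells of a type and less RNA per cell cannot be told apart.

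*ctrb1*, which encodes the protease precursor chymotrypsinogen, had log2 values of 7.34, 9.76, 9.64 and 10.22 in the controls of clutches 1 to 4 and of 6.48, 8.72, 9.0 and 9.29 in the mutants. Both libraries of clutch 1 were below the other 6, and each mutant was below its control. By limma, clutch 1 was lower by a difference of -2.53 (standard error 0.08) at an adjusted p of 2.59e-06. *cpa1*, the gene of carboxypeptidase A, stood at 2.14, 5.23, 5.61 and 6.20 in controls and at 1.1, 3.67, 4.79 and 5.01 in mutants. Here clutch 1 was again lowest in both genotypes, and clutch 4 highest in both, and clutch 1 was lower by a log2 difference of -3.47 (standard error 0.13), or 11-fold.

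The amylase gene *amy2a* had values of 3.34, 6.58, 6.52 and 6.95 in controls and of 2.15, 4.99, 5.77 and 5.45 in mutants. *pla2g1b*, which encodes a secreted phospholipase, had values of 1.11, 5.1, 4.33 and 4.67 in controls and of -1.07, 2.70, 2.68 and 2.51 in mutants. In both genes the libraries of clutch 1 lay under all others of either genotype. Their log2 differences were -3.30 (standard error 0.14) and -3.65 (standard error 0.16). The protease genes *zgc:112160* and *zgc:92041*, close relatives of other members that may share reads with them, differed by -2.54 and -2.30.

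Clutches 2, 3 and 4 had 19, 22 and 24 members of the exocrine pancreas list called higher, but clutch 1 was part of their reference. Without clutch 1, 0 were higher in clutch 2, 0 in clutch 3 and 3 in clutch 4, and the medians were -0.11, 0.02 and 0.11. The enzymes were also lower in mutants than in controls of the same clutch. In 29 of the 32 genes this held in all 4 clutches, beside 2940 (14.4%) of all 20409 genes. With clutch as a block 30 of the list were called, and 0 without it. Of 6 acinar regulators, the transcription factors that govern these cells together with *rbp4l*, which encodes a retinol-binding protein, only *rbp4l* was called among clutches. Against the other clutches, 1 of the 6 was higher and 2 lower in clutch 1, with a median difference of -0.14. The endocrine pancreas list, hormone and islet genes, had 3 of 14 members higher and 3 lower in clutch 1. Of all genes, 14.3% were higher and 12.6% lower there.

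The intestine moved the same way. Of 48 genes for absorption, 37 were lower in clutch 1 and 4 were higher, with a median of -1.15. The fall of the median was larger in controls (-1.41) than in mutants (-0.78), a difference that could not be tested with 1 library of each. *chia.2*, an acidic chitinase gene, had values of 6.06, 9.92, 9.47 and 9.97 in controls and of 4.00, 7.26, 7.6 and 7.81 in mutants. It was lowest in clutch 1 in each genotype, and all mutants but mutant 1 lay between control 1 and the other controls. The log2 difference of clutch 1 was -3.64 (standard error 0.13), or 12.5-fold lower, and that of the paralog *chia.1*, which may share reads with it, was -2.82.

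*fabp6*, which encodes the ileal bile acid-binding protein, had values of 2.88, 5.87, 5.62 and 5.78 in controls and of 0.96, 4.34, 4.87 and 4.51 in mutants. Clutch 1 lay below the other 6 libraries, with a difference of -3.25 (standard error 0.18). *vil1*, which encodes villin of the enterocyte brush border, differed by -1.66 (standard error 0.06), and the cytochrome gene *cyp3a65* by -3.01 (standard error 0.15). *enpp7.1*, which encodes an alkaline sphingomyelinase, differed by -3.01 (standard error 0.21), and *aoc1*, an amine oxidase gene, by -3.31 (standard error 0.14). The 4 members higher in clutch 1 were all apolipoprotein genes that carry lipid from the yolk, the gut or the liver. *apobb.2* was higher by 1.58 (standard error 0.13) and *apoba* by 0.58 (standard error 0.11). *apoa4a* and *apoa1a*, named after their values were seen, were higher by 0.50 and 0.25.

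In the liver list, 38 of 55 genes were lower in clutch 1 and only *cp* was higher, with a median of -0.52. Without control 1, 21 members of the liver list remained lower by the call, and without any other library 32 to 39. *ttr*, which encodes the thyroid hormone carrier transthyretin, had values of 0.05, 3.70, 3.21 and 3.73 in controls and of 0.39, 3.14, 3.34 and 3.32 in mutants. The clutch 1 libraries stood well under the rest, and the genotypes overlapped. By limma, clutch 1 differed by -3.19 (standard error 0.19) at an adjusted p of 2.06e-05. *fabp10a*, the liver fatty acid-binding protein gene, differed by -1.88 (standard error 0.12) and *tdo2a*, which encodes a tryptophan-degrading enzyme, by -1.76 (standard error 0.10). *leg1.1*, a liver-enriched gene, differed by -1.66 (standard error 0.07), and its values ran from 4.26 in clutch 1 to 6.41 in clutch 4 in controls and from 4.02 to 6.04 in mutants, with the clutches in the same order. *cp*, which encodes the copper carrier ceruloplasmin, was higher in clutch 1 by 0.64 (standard error 0.07).

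**Figure D3:**
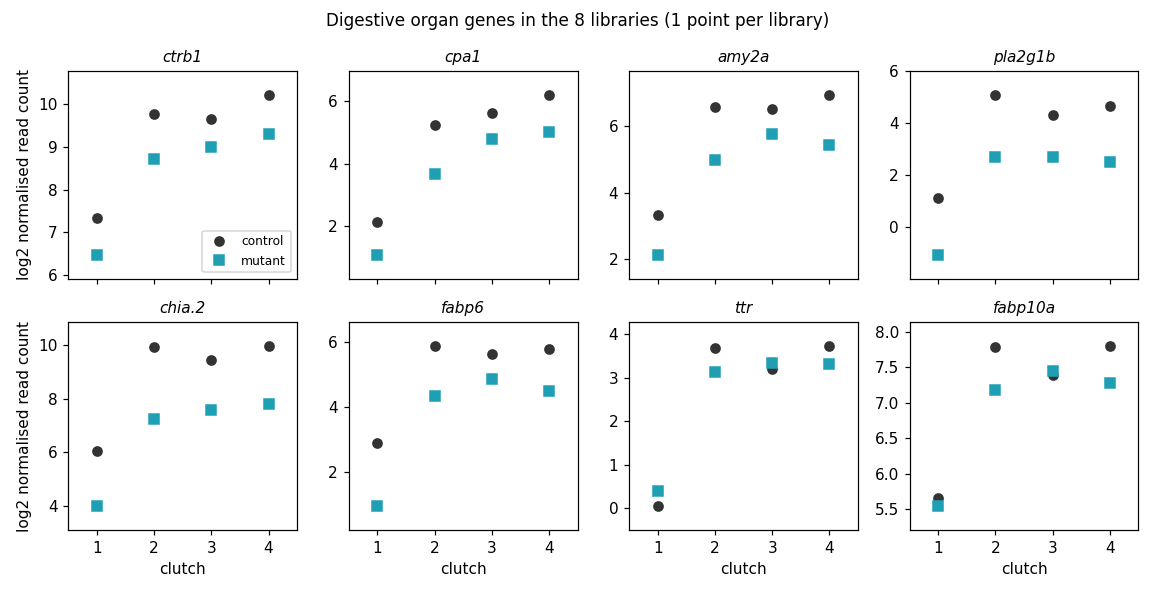
Log2 normalised read counts of 8 genes of the pancreas, intestine and liver in the 4 controls (circles) and 4 mutants (squares) by clutch, 1 point per library, with a separate vertical scale for each gene. In each gene both points of clutch 1 lie under those of the other clutches of the same genotype, as in *ctrb1* at 7.34 and 6.48.

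Genes of fasting and of the insulin response fell with the digestive genes in clutch 1, with 23 of 36 lower and none higher and a median of -0.46. They include *pdk2b* and *pdk4*, which encode kinases that hold back the oxidation of glucose, and *irs2b*, which encodes an adaptor of the insulin receptor. *pdk2b* had values of 6.22, 7.59, 6.47 and 7.15 in controls and of 5.11, 6.56, 5.65 and 6.38 in mutants. Within each genotype it was low in clutches 1 and 3 and high in clutches 2 and 4. Clutch 1 differed by -0.97 (standard error 0.08) and clutch 2 by 0.91 (standard error 0.08). *irs2b* and *pdk4* differed in clutch 1 by -0.77 and -0.52.

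Genes of ionocytes, the skin cells that take up ions from the water, were more often lower than higher in clutch 1. So were those of the pronephros, the larval kidney. Of 44 ionocyte genes 25 were lower and 2 higher, with a median of -0.41, and 10 were lower without mutant 1. Without both libraries of clutch 4, 12 of the ionocytes list were lower in clutch 1, with a median of -0.24. Of 33 pronephros genes 16 were lower and 1, *pax8*, higher, with a median of -0.26. *cubn*, which encodes the uptake receptor cubilin of the tubule, differed by -1.15 (standard error 0.12), and *pdzk1*, which encodes a scaffold of tubule and gut transporters, by -1.38 (standard error 0.14). *cdh17*, a cadherin gene of the tubule and of the gut, differed by -0.86 (standard error 0.10), and *pdzk1ip1* by -0.93 (standard error 0.09). The falls of *pdzk1* and *cdh17* cannot be assigned to the pronephros alone, since both are also gut genes. The ionocyte genes higher in clutch 1 were *foxi1* by 1.07 (standard error 0.30) and *pvalb9* by 0.58 (standard error 0.11). Of 44 ionocyte genes, 19 were higher and 3 lower in clutch 4, with 12 higher and 2 lower when clutch 1 was left out, and 8 of the ionocytes list were higher there without mutant 4 and 11 without control 4.

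Genes of several other tissues were higher in clutch 1. Of 33 genes of erythrocytes and globins, 20 were higher and 2 lower in clutch 1, with a median of 0.53, and 16 were lower in clutch 4. Of the erythrocytes and globins list, 12 were called lower in clutch 4 without clutch 1, and 10 without mutant 4. *hbbe1.2*, a gene of embryonic beta globin, had values of 7.74, 6.03, 6.11 and 5.26 in controls and of 7.98, 6.44, 6.48 and 5.59 in mutants. Clutch 1 was above the other 6 libraries and clutch 4 below the other 6. The differences were 1.88 (standard error 0.06, adjusted p = 2.59e-06 from limma) for clutch 1 and -1.37 (standard error 0.06) for clutch 4. The alpha globin gene *hbae1.2* had values of 9.07, 7.30, 7.55 and 6.87 in controls and of 9.22, 7.75, 7.86 and 7.16 in mutants, again with clutch 1 on top and clutch 4 lowest within each genotype. *hbbe1.3*, a near copy of *hbbe1.2*, and *hbae1.3*, a near copy of *hbae1.2*, differed in clutch 1 by 1.68 and 1.63. Near copies may share reads.

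Outside the globin genes, *alas2*, which encodes the first enzyme of heme synthesis in red cells, had values of 5.54, 4.39, 4.61 and 3.73 in controls and of 5.70, 4.48, 4.62 and 3.82 in mutants. *klf1*, a transcription factor gene of erythroid cells, had values of 2.14, 1.00, 1.17 and 0.30 in controls and of 2.15, 1.03, 1.05 and -0.06 in mutants. Both genes were named after their values were seen, and in both clutch 1 was highest and clutch 4 lowest. Their clutch 1 differences were 1.34 (standard error 0.08) and 1.4 (standard error 0.19). The 2 members lower in clutch 1 were *slc11a2*, an iron transporter gene, by -0.33, and *rhag*, which encodes a red cell membrane channel, by -0.19.

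Pigment genes were higher in clutch 1 in 25 of 41 cases and lower in 7, with a median of 0.46. *pmelb*, which encodes a fibre protein of pigment granules, had values of 6.19, 4.36, 4.31 and 4.70 in controls and of 6.19, 4.66, 4.38 and 4.68 in mutants. Only the libraries of clutch 1 exceeded 5, by a difference of 1.67 (standard error 0.08). *gch2*, which encodes an enzyme of yellow pigment synthesis, went from 6.78 and 7.11 in clutch 1 through 6.38 and 6.70 in clutch 2 and 5.34 and 5.71 in clutch 3 to 5.03 and 4.87 in clutch 4, in controls and mutants. The order of the clutches was thus the same in both genotypes. *tyrp1b*, a melanin synthesis gene, was higher in clutch 1 by 1.02 (standard error 0.12). Among the lower members were *bco1l*, which encodes a carotenoid-cleaving enzyme, by -2.58 (standard error 0.17), and *xdh*, xanthine dehydrogenase, by -0.87 (standard error 0.15).

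*he1.1*, which encodes a hatching enzyme, had the largest rise of clutch 1 among the genes named by size. Its values were 4.29, 0.69, -0.21 and 1.21 in controls and 5.42, 4.12, 0.22 and 2.82 in mutants. Mutant 2 stood almost as high as control 1, and both libraries of clutch 3 were lower than the other 6. The difference of clutch 1 was 3.38 (standard error 0.45) and that of clutch 3 -3.09 (standard error 0.45), with a spread around the fit far wider than that of the globin genes. *ponzr4* was also higher in clutch 1, by 1.78 (standard error 0.26).

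Genes of growing and differentiating tissue were higher in clutch 1 by smaller amounts. Of 44 neural progenitor genes, 26 were higher and none lower, with a median of 0.38. These included the transcription factor genes *sox11a*, by 0.57 (standard error 0.06), and *her6*, by 0.69 (standard error 0.10), and the Notch ligand gene *dlb*, by 0.63 (standard error 0.08). The count was 14 without mutant 1, 15 without control 1 and 19 on the re-centred scale. Of 85 cell cycle genes, 43 were higher and 1 was lower, with a median of 0.31 (0.16 in controls and 0.43 in mutants). On the re-centred scale 20 were higher. Over all 20409 genes the number higher in clutch 1 also fell on that scale, from 2917 to 1140. For the cell cycle list, leaving out mutant 1 left 4 higher, control 1 24, control 3 25 and control 2 28.

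In the skeleton, 22 of 42 cartilage and bone genes were higher in clutch 1 and 4 lower, with a median of 0.26. By mean level clutch 3 was about as high as clutch 1. The list stood at 6.51, 6.24, 6.48 and 6.31 in the controls of clutches 1 to 4. In the mutants it stood at 6.26, 6.14, 6.34 and 6.01. On the re-centred scale 14 were higher and 6 lower, and 8 of the cartilage and bone list were higher without control 1. *matn1*, a cartilage matrix gene, had values of 9.04, 8.45, 8.73 and 8.15 in controls and of 8.45, 8.08, 8.34 and 7.75 in mutants. Clutch 1 was highest and clutch 4 lowest within each genotype, and the genotypes overlapped. The difference of clutch 1 was 0.49 (standard error 0.06), that of the proteoglycan gene *acana* 0.41 and that of *epyc* 0.43. Lower in clutch 1 were *col10a1a*, which marks mature cartilage and bone, by -0.50 (standard error 0.08), and *spp1*, which encodes a bone matrix protein, by -0.80 (standard error 0.16). In the notochord list, 11 of 24 genes were higher and none lower, led by *emilin3a*, a matrix gene, with 1.34 (standard error 0.10), while 5 were higher on the re-centred scale and without either library of clutch 1, and 7 of the notochord list without control 3, mutant 3 or both libraries of clutch 4.

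**Figure D4:**
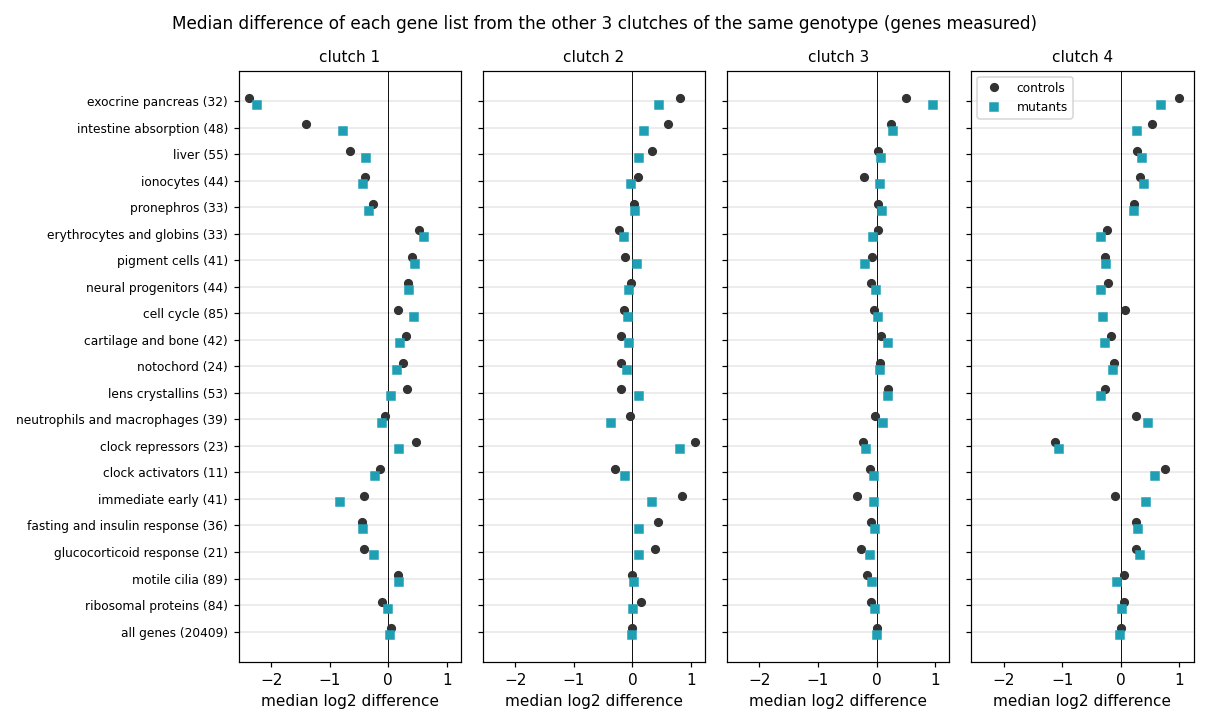
Median log2 difference of each gene list, in each clutch, from the other 3 clutches of the same genotype, for controls (circles) and mutants (squares), with the number of measured genes in brackets. In clutch 1 the exocrine pancreas stands at -2.38 and -2.24 while the medians over all genes are 0.05 and 0.03, and in clutch 4 the clock repressors stand at -1.13 and -1.06.

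Genes of the circadian clock held most places among the genes with the smallest p. The 6 genes with the smallest p of the four-clutch test were *nr1d1*, *per1b*, *per1a*, *cry1bb*, *ptgdsb.2* and *ciarta*, of which 5 belong to the clock list. All 23 clock repressors were called among clutches, as were 7 of 11 clock activators and 8 of 16 clock outputs, beside 26.0% of all genes. *nr1d1*, which encodes the repressor Rev-erb alpha, had values of 7.65, 9.03, 6.72 and 4.71 in controls and of 7.27, 8.59, 6.19 and 3.96 in mutants. The order was clutch 2, 1, 3 and 4 in each genotype, with no overlap between clutches. Clutch 2 was higher by 2.73 (standard error 0.08) and clutch 4 lower by a difference of -3.24 (standard error 0.08), and the test among clutches by limma gave an adjusted p of 1.54e-06.

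The period genes *per1a*, *per1b* and *per3* kept the same order, and the name refers to these genes below. *per1b* had values of 7.80, 8.04, 6.54 and 3.71 in controls and of 7.70, 7.96, 6.37 and 4.00 in mutants, and *per1a* had 5.72, 6.65, 3.94 and 2.77 in controls and 5.57, 6.38, 3.80 and 2.34 in mutants. Clutch 4 was lower by differences of -3.55 (standard error 0.09) and -2.79 (standard error 0.09). *per3* stood at 7.36, 7.39, 7.18 and 4.19 in controls and at 6.79, 7.37, 6.56 and 4.55 in mutants. Both libraries of clutch 4 lay below the other 6, by a difference of -2.74 (standard error 0.17). Clutches 1 and 2 were called higher, by 0.87 and 1.27, with clutch 4 in their reference. *ciarta*, which encodes another repressor of the loop, had values of 6.98, 7.13, 5.57 and 4.05 in controls and of 7.04, 6.97, 5.67 and 4.26 in mutants. In this gene clutches 1 and 2 overlapped.

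Other members ran the opposite way. *cry1bb*, a cryptochrome gene, had values of 4.95, 5.16, 6.12 and 7.93 in controls and of 4.63, 4.94, 6.05 and 7.82 in mutants. It was highest where the period genes were lowest, with a difference of 2.57 (standard error 0.07) in clutch 4 and -1.55 (standard error 0.07) in clutch 1. *nfil3-5*, a gene of the basic leucine zipper repressors, stood at 9.24 and 8.87 in clutch 4 and between 6.61 and 7.29 in the other 6 libraries, a difference of 2.04 (standard error 0.13). *cry1ba* was higher in clutch 4 by 0.78 (standard error 0.08). *nr1d4b* was higher in clutch 4 by 1.73 (standard error 0.15) and lower in clutch 3 by a difference of -1.73 (standard error 0.15).

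Among the activators, 7 of 11 were higher in clutch 4 and none lower, with a median of 0.62. *rorcb*, a receptor gene of the Ror family, had values of 2.80, 3.15, 3.30 and 4.79 in controls and of 2.78, 3.2, 3.29 and 4.83 in mutants. Control and mutant of each clutch differed by less than 0.1, and clutch 4 stood above the rest by 1.73 (standard error 0.10). *clocka*, *npas2* and *rorca* were higher in clutch 4 by 0.95, 0.84 and 0.62, and *arntl2* by 0.68. Of the outputs, *dbpb*, which encodes a clock-driven transcription factor, had values of 5.16, 5.85, 3.82 and 2.82 in controls and of 4.99, 5.65, 3.69 and 2.94 in mutants, in the order of the period genes. *tefa* and *dbpa* were lower in clutch 4 by differences of -1.76 and -1.57, and *hlfb* was higher by 1.05.

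As a group, the clock repressors had 15 members higher and 2 lower in clutch 2 (median 0.94), 15 lower and 6 higher in clutch 4 (median -1.11), 13 higher and 4 lower in clutch 1 (median 0.29), and 8 lower and 2 higher in clutch 3 (median -0.18). Without clutch 1, the clock repressors had 16 members higher in clutch 2 and 16 lower in clutch 4. The directions of clutches 1 and 3 depended on the reference. Without clutch 4, clutch 1 had 8 higher and 5 lower (median 0.01) and clutch 3 had 2 higher and 15 lower (median -0.62), and without clutch 2, clutch 3 had 6 higher and 4 lower (median 0.08). The count in clutch 4 was 14 to 16 without any single library. In clutch 2 it was 8 without control 2, and in clutch 3 it was 2 without control 3 and 3 without mutant 3.

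**Figure D5:**
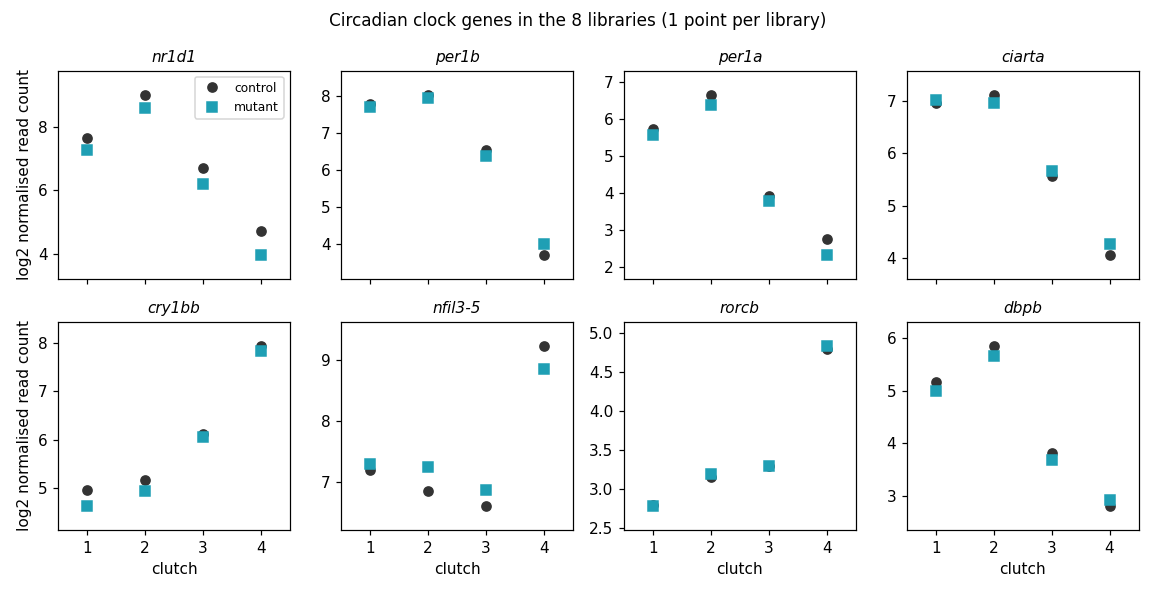
Log2 normalised read counts of 8 clock genes in the 4 controls (circles) and 4 mutants (squares) by clutch, 1 point per library, with a separate vertical scale for each gene. The control and mutant of a clutch lie close together, and *nr1d1* falls from 9.03 and 8.59 in clutch 2 to 4.71 and 3.96 in clutch 4 while *cry1bb* is highest in clutch 4.

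Clutch 2 was marked by immediate early genes, but as a list only in controls. These genes are switched on within minutes of neuronal activity or other stimulation. Of 41 such genes, 17 were higher in clutch 2 and none lower, with a median of 0.64 (0.85 in controls and 0.34 in mutants). In clutch 1, 24 were lower and 2 higher, with a median of -0.60. In clutch 4, 9 were higher and 2 lower, with medians of -0.1 in controls and 0.44 in mutants. Without clutch 1, 1 was higher and 5 lower in clutch 4. The mean level of the list was 5.1 in mutant 2 and 5.16 in mutant 4. Whether the genotypes differed in this could not be tested with 1 library of each. The count in clutch 2 was 11 without clutch 1 and 5 without control 2, and that in clutch 1 was 9 without mutant 1. *npas4a*, an activity-dependent transcription factor gene of neurons, had values of 3.78, 6.86, 4.81 and 4.83 in controls and of 3.30, 5.75, 3.42 and 3.53 in mutants. Clutch 2 was highest in both genotypes by 2.36 (standard error 0.16) with an adjusted p of 0.000361 by limma, and control 2 and mutant 2 exceeded the other 6 libraries. *fosab*, which encodes c-Fos, had values of 5.35, 7.61, 4.83 and 5.29 in controls and of 5.00, 7.43, 5.17 and 6.32 in mutants, with mutant 4 the nearest to clutch 2. The differences of clutch 2 were 2.2 (standard error 0.22) for *fosab*, 1.84 (standard error 0.16) for *egr4*, 1.54 (standard error 0.12) for *ier2b* and 0.85 (standard error 0.07) for *mych*.

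Genes that respond to glucocorticoids had 6 of 21 members higher and none lower in clutch 2 (median 0.16), 9 higher and 1 lower in clutch 4 (median 0.31), and 12 lower and 2 higher in clutch 1 (median -0.40). Without clutch 1, 4 of the glucocorticoid response list were higher and 2 lower in clutch 4. In clutch 1, 6 of the glucocorticoid response list were lower without control 1 and 7 without mutant 1, and in clutch 2, 3 were higher without control 2. Among the members it shares are *per1a* with the clock list, *npas4a* with the immediate early list and *pdk2a* with the list of fasting and the insulin response. *klf9*, a transcription factor gene induced by cortisol, had values of 6.41, 7.6, 6.38 and 7.64 in controls and of 5.86, 6.93, 5.60 and 6.74 in mutants. It was high in clutches 2 and 4 and low in clutches 1 and 3, with no overlap within a genotype. The genes named for their falls in clutch 2 changed less than those that rose. *grem1a*, which encodes a secreted antagonist of bone morphogenetic proteins, differed by -1.62 (standard error 0.30), and the protocadherin gene *pcdh2g3* by -1.38 (standard error 0.27). *vtg7*, a yolk protein gene, differed by -1.30 (standard error 0.26), and *timp4.1*, which encodes an inhibitor of matrix proteases, by -1.27 (standard error 0.14).

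Clutch 3 had the fewest calls. Without control 2 the order of clutches 2 and 3 turned, but clutch 2 then rested on a single library. Among the higher genes of clutch 3 were several of protein folding and stress. In the heat shock list 5 of 35 genes were higher and none lower, with a median of 0.21 in controls and -0.06 in mutants. In the unfolded protein response list 7 of 34 were higher and 1 lower, with medians of 0.19 and 0.11. These calls depended on which libraries were used. Without control 3 or mutant 3, clutch 3 rested on a single library, and its calls over all genes fell as well. In the heat shock list 3 members were called without control 1, control 4 or both libraries of clutch 1. Of the unfolded protein response list, 0 were higher without control 3 or mutant 3, 3 without control 4, and 4 without control 1, mutant 2 or mutant 4. *hsp90aa1.1*, a chaperone gene of muscle, had values of 6.74, 7.49, 8.02 and 6.80 in controls and of 6.71, 6.97, 7.59 and 6.92 in mutants. Clutch 3 was highest in each genotype, by 0.86 (standard error 0.12). *hspa5*, which encodes the main chaperone of the endoplasmic reticulum, was higher by 0.54 (standard error 0.07), and *calr3a*, a calreticulin gene, by 0.44 (standard error 0.06). *dnajb11* was higher by 0.34 (standard error 0.07). The unfolded protein response member with the smallest p among clutches, *chac1*, went the other way in clutch 3, with a difference of -0.35 (standard error 0.07).

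*bco2l*, which encodes a carotenoid-cleaving enzyme, had values of 1.11, 2.44, 3.40 and 2.80 in controls and of 0.85, 1.64, 2.89 and 2.00 in mutants, highest in clutch 3 and lowest in clutch 1. The stress-induced gene *nupr1b* was higher in clutch 3 by 0.98 (standard error 0.07) and *ifih1*, which encodes a sensor of viral RNA, by 0.97 (standard error 0.20). Lower in clutch 3 were *hhla2b.2* and *ccdc171*, by differences of -1.32 and -1.25. *serpinh1b*, the collagen chaperone in the heat shock list, was higher in both clutch 1, by 0.86, and clutch 3, by 1.25, and lower in clutch 4, by a difference of -1.40. *hsf2*, in the same list, had values of 6.71, 6.79, 5.58 and 4.41 in controls and of 6.62, 6.70, 5.86 and 4.73 in mutants, with clutch 4 lowest as in the period genes.

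A pair of ion channel genes were among those that rose most in clutch 4. *kcnj1a.2*, a potassium channel gene of ion-transporting cells, had values of 1.88, 1.52, 1.46 and 4.32 in controls and of 1.89, 0.60, 1.63 and 4.06 in mutants. Both libraries of clutch 4 stood more than 2 log2 units above the other 6, by a difference of 2.70 (standard error 0.21). *trpv6*, which encodes the epithelial calcium channel of ionocytes, had values of 3.60, 4.27, 4.09 and 6.69 in controls and of 3.1, 2.92, 3.88 and 5.78 in mutants. Both libraries of clutch 4 again lay above the other 6, by a difference of 2.59 (standard error 0.19). Clutches 1 and 2 were called lower, by differences of -1.25 and -0.93, with clutch 4 in their reference. The ammonium transporter genes of ionocytes differed from these, with *rhcga* higher in clutch 2 by 1.05 (standard error 0.07) and lower in clutch 4 by -0.58, and *rhcgl1* lower in clutch 4 by -1.43.

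*crp2*, a gene of the C-reactive protein family, had values of -0.28, 0.55, 1.53 and 3.07 in controls and of -1.32, -0.08, 1.18 and 2.77 in mutants, in the same order in both genotypes. The difference of clutch 4 was 2.66 (standard error 0.22). Of 39 genes of neutrophils and macrophages, 9 were higher and none lower in clutch 4, with a median of 0.33. Among them were *mpeg1.1*, a pore-forming protein gene of macrophages, by 0.60 (standard error 0.12), and *lcp1*, an actin-bundling protein gene of leukocytes, by 0.65 (standard error 0.12). The other members named by the rule, *apoc1* and *slc7a7*, had smaller p among clutches. They differed in clutch 4 by only 0.01 and 0.12 and were not called there. In the neutrophils and macrophages list, 0 were called in clutch 4 without mutant 4, 2 without control 3 or mutant 3, 4 without control 1 or mutant 2, and 5 without control 4 or mutant 1. Without both libraries of clutch 1, 4 of them were called.

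Lens crystallin and cell cycle genes were among those lower in clutch 4. Of 53 lens crystallins, 26 were lower and 1 higher, with a median of -0.33, and 24 were lower without clutch 1. The call of the lens crystallins depended on single libraries, with 1 lower without mutant 4, 5 without control 4, 14 without both libraries of clutch 3, 16 without mutant 3 and 17 without control 3. On leaving out any single library, the median of the lens crystallins in clutch 4 stayed between -0.4 and -0.26. Without a library of clutch 4, the calls over all genes fell as well. Many crystallins are near copies of each other, and reads may be shared among them. *crygmxl2* differed by -0.86 (standard error 0.13) and *crygm5* by -0.86 (standard error 0.14). The other lens genes named by the rule went the other way in clutch 4. *crygn1* was higher by 0.99 (standard error 0.2), and *crygmx* differed by 0.13 and was not called. Of the cell cycle genes 26 were lower and 2 higher, and of the cell cycle list 6 were lower without mutant 4, 17 without control 3 and 15 with no trend in the moderation. The median was -0.31 in mutants and 0.08 in controls, and without both libraries of clutch 1, 16 of the cell cycle list were lower in clutch 4, with a median of -0.01. *mcm6*, which encodes a subunit of the helicase that opens DNA for replication, had values of 6.18, 6.28, 6.23 and 5.38 in controls and of 6.47, 6.43, 6.25 and 5.41 in mutants. Clutch 4 was lowest in both genotypes, and *mcm2*, *mcm3* and *mcm4* were lower in clutch 4 by differences of -1.0, -0.86 and -0.83. In the germ cells list 5 of 11 genes were lower in clutch 4, including *ddx4* by -1.33, *piwil2* by -1.31 and *tdrd1* by -0.92, with 3 called without control 3 or both libraries of clutch 1, 2 without control 4 and 0 without mutant 4.

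Ribosomal protein and motile cilia genes were seldom called. Among 84 ribosomal proteins, 6 (7.14%) were called among clutches, and among 89 genes of motile cilia 4 (4.49%), both below the 26.0% over all genes. Motile cilia genes were low, with mean log2 values from 1.2 to 1.93 per library, while ribosomal protein genes had 8.63 to 8.83. Of 59 neuronal genes, 27 (45.8%) were called among clutches. In clutch 1, 8 of the neuronal genes were higher and 18 lower, beside 14.3% higher and 12.6% lower of all genes. Of 60 photoreceptor genes, 25 (41.7%) were called among clutches. In clutch 1, 18 of the photoreceptor genes were lower, and 5 to 26 on leaving out any single library. Higher there were 3, *gnb3a* by 0.69, *zmp:0000000545* by 0.73 and *cnga3a* by 0.42. The median of the photoreceptors in clutch 1 was -0.60 in controls and 0.09 in mutants, a difference that could not be tested. The mutants' mean level in every clutch (3.13 to 3.32) was below that of the controls (4.60 to 5.21). *opn1mw2*, a green cone opsin gene, went from 2.24 in control 1 to 3.57 in control 4 and from 3.09 in mutant 1 to 4.68 in mutant 4, with the clutches in the same order. Unlike the list mean, *opn1mw2* was higher in the mutant than in the control of every clutch.

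A few genes had both libraries of a clutch more than 1.5 log2 units beyond all other libraries. There were 17 such genes on the low side and 3 on the high side in clutch 1, and 3 low and 7 high in clutch 4. Clutches 2 and 3 had 1 each, both low. *LOC108179231* stood at 1.14 and 1.62 in clutch 1 and at -5.02, the lowest value in the table, in 5 of the other 6 libraries, with -4.42 in control 4. In RefSeq gene order on chromosome 15 it lies 6 genes from *si:dkey-105h12.2* and 7 from *LOC569025*, both lower in clutch 1. *si:dkey-105h12.2* had values of 1.54, 4.80, 4.09 and 4.52 in controls and of 1.45, 4.05, 4.06 and 4.07 in mutants. The neighbours *si:dkey-14d8.7* and *si:dkey-14d8.6* on chromosome 4 were both low in clutch 1, the first at -0.61 and -1.32 against 2.48 to 4.38 in the other 6 libraries. *ptgdsb.2*, a gene of the prostaglandin D synthase family, stood at 4.68 and 4.44 in clutch 1 and from 6.34 to 7.40 in the rest, a difference of -2.22 (standard error 0.06) with an adjusted p of 2.28e-06 by limma. In clutch 4, *si:dkey-18a10.3* stood at 0.44 and -0.06 while the other 6 libraries ranged from 3.64 to 5.58. These genes, apart from *ptgdsb.2*, were named after their values were seen.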

How the data were processed

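RNA of 8 libraries was analysed. The authors cleaned the reads (SOAPnuke), mapped them to the genome (HISAT2) and the transcriptome (Bowtie2), estimated gene counts (RSEM), removed genes whose mean CPM did not exceed 1 and transformed the rest with voom. Of the deposited genes, 235 have a mean of 1 or less after the log2 values are turned back to CPM, so the table does not follow the stated minimum in every row. The build was GRCz11 according to the submitters' processing notes. The deposited values are log2 CPM of 20409 genes from -5.02 to 14.04. In each library the linear values sum to between 997999 and 998008, and the sorted values are nearly the same in all 8, so a shift shared by most genes of a library would not show. Depth is unknown, and precision was taken from the spread between libraries. A second deposited table holds the authors' own comparison of mutants with controls (log2 fold change, p-values and related statistics) and was used for gene symbols only.

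Clutch and genotype were fitted to the deposited log2 values with limma 3.58.1 in R 4.3.3 (empirical Bayes with a mean-variance trend, two-sided, 3 residual and 5.66 prior degrees of freedom) and tested on simulated data. With 1 library per clutch and genotype, the residual is the departure from additivity, and no test of clutch effects differing by genotype exists. P-values were adjusted by Benjamini-Hochberg over all genes and called under 0.1. No filter or pseudocount was used. Standard errors are those of limma. The titles give control and mutant the same clutch number, and the methods state joint processing, so number pairs libraries in the mutant comparison. Same-clutch departures correlated at 0.33 to 0.64.

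Of 50 gene lists, 49 had measured members, and 29 are described. Of 2012 symbols, 1629 were found as deposited, 79 through RefSeq names (a table of another build, used for names and gene order only), and 304 were not. Lists carry no test. The members and lists were chosen with earlier results of these data known. Genes were named as the 8 largest called differences each way in clutch 1 and 4 each way in the others with both libraries beyond the other 6, a mean log2 value of at least 0 and a proper symbol (no clone-style name), up to 4 members of each described list with the smallest p and up to 2 that went the other way, the 6 smallest p among clutches, and *traf3ip1*. Exceptions are stated. Motifs in promoters were not analysed here. The alternatives were no trend, robust moderation, library weights, a pseudocount of 1, a minimum mean log2 value of 1, re-centring, no genotype term, other thresholds and leaving out libraries or clutches. Those for the gene lists were chosen after seeing the data. Plots were made in Python 3.11.15 (matplotlib 3.10.9).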

Additional observations from a re-analysis of the deposited data

Results flagged for a closer look

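Among the 4 controls or the 4 mutants, a library was marked where its gap to the nearest other was large relative to the range of the 4 (Dixon's criterion). Chance marks about 1 in 20 groups, and 22 marks arose in 136 groups of 4 tested over gene list means and the genes named by size or by smallest p. The rate cannot be read against chance, since the genes named by size were chosen because both libraries of a clutch lay beyond the other 6, and all the single genes marked are of that kind. Of the marks, 6 fell on control 1 and 10 on mutant 1.

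The mean level of the exocrine pancreas list was 4.13 in control 1 and 3.31 in mutant 1, each the lowest of its 4. The acinar regulators had a mean of 4.09 in mutant 1, and intestine absorption had 3.89 in control 1 and 3.32 in mutant 1, again the lowest. The germ cell list had 2.83 in both control 4 and mutant 4, the lowest of each 4.

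Single genes were marked on the low side in clutch 1. *chia.2* was at 6.06 in control 1 and 4.00 in mutant 1, *fabp6* at 2.88 and 0.96, and *ttr* at 0.05 and 0.39. *amy2a* was marked in control 1 alone, at 3.34. In mutant 1 alone, *pla2g1b* was marked at -1.07, *aoc1* at 0.63 and *enpp7.1* at -1.86. On the high side, *pmelb* was marked in mutant 1 at 6.19.

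Elsewhere, *npas4a* was highest in mutant 2 at 5.75, and *pcdh2g3* was lowest in control 2 at -1.21. *kcnj1a.2* was highest in control 4 at 4.32, and *per3* was lowest in control 4 at 4.19.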

How the results depend on the processing

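The genes varying among clutches numbered 5310, the genes differing in clutch 1 5481, the genes differing in clutch 2 910, the genes differing in clutch 3 427 and the genes differing in clutch 4 3139. In that order they were 577, 2043, 36, 17 and 516 with no genotype term, 3178, 3569, 421, 214 and 1733 at an adjusted p under 0.05, and 1140, 539, 115, 65 and 255 with a log2 difference of at least 1. With no trend there were 2737 among clutches and 106, 72 and 1605 in clutches 2, 3 and 4, and with library weights 1026 in clutch 3. Leaving out each library gave 2629 to 4750 among clutches, 2205 to 5271 in clutch 1, 58 to 852 in clutch 2, 34 to 384 in clutch 3 and 463 to 2929 in clutch 4. Without both libraries of clutch 1 there were 1083 among clutches and 564, 189 and 1283 in clutches 2, 3 and 4. Clutch 3 had 854 calls without clutch 2 and 957 without clutch 4, where 3238 varied among clutches. Robust moderation, a pseudocount of 1, a minimum mean log2 value of 1 and re-centring kept these 5 counts within 1.5 times.

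In the paired analysis, the genes differing between mutants and controls rose from 311 to 2927 with the replicate block. Leaving out each library gave 146 to 1091 without the block. With it there were 2916, 1585, 1292 and 1467 without controls 1 to 4, and 2874, 1583, 1284 and 1472 without mutants 1 to 4. Without both libraries of clutches 1 to 4 there were 2879, 1584, 1289 and 1466. With the block, a library that has lost its partner adds nothing to the difference between genotypes. The counts on leaving out the control, the mutant or both of a clutch are therefore nearly the same comparison, not separate checks.

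With no trend, the calls of some lists fell by more than 1.5 times, to 24 higher of the cell cycle list in clutch 1, 6 higher of immediate early and 3 of glucocorticoid response in clutch 2, 2 lower of clock repressors, 1 higher of heat shock and 0 of unfolded protein response in clutch 3, and 5 lower of lens crystallins in clutch 4. The same-clutch correlations rose to between 0.41 and 0.73 with a pseudocount or a minimum mean. Of 1897 recomputed values for 173 results on named genes, 137 were no longer called, 130 of them on leaving out a library. The direction reversed in 0, but only differences of a clutch from the others could reverse. The test among clutches has no direction. Since depth is unknown, little can be said of genes near the lowest value.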

Other observations

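The other 20 gene lists with measured members had medians from -0.44 to 0.19 in clutch 1, -0.21 to 0.24 in clutch 2, -0.19 to 0.13 in clutch 3 and -0.18 to 0.40 in clutch 4. At the low end in clutch 1 was inflammation and acute phase, the plasma proteins and signals of early defence, with 13 of 36 genes lower and 2 higher, and the same list had 14 higher and none lower in clutch 4. Cholesterol synthesis had 12 of 27 genes lower in clutch 1 and none higher, with a median of -0.30, and the mitochondrial respiratory chain had 34 of 84 lower and none higher, with a median of -0.17. Yolk and lipid transport had 8 of 17 genes lower and 1 higher in clutch 1, and 9 higher and none lower in clutch 4. Fast muscle had 13 of 48 genes higher and 10 lower in clutch 1.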
